A study of Rattus norvegicus with 18 samples.

Results

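The genes described here are 7 connexins (Gja1, Gja4, Gja5, Gjb2, Gjb6, Gjc1 and Gjd2) and pannexin 1 (Panx1), measured by RNA sequencing in rat cortical cultures under glutamate excitotoxicity. They were taken by name from the 31463 rows of the count tables, and all 8 were found. Among them Gja5 was picked by its measured rise with vesicles in these libraries, so its values in that group are a description and carry no test. Of the 8 members, 6 passed the filter on low counts and were tested among 14398 genes, whereas Gja4 and Gjb6 did not pass and are given by their counts.

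The 18 libraries came from primary neuroglial cultures of the cortex of newborn Wistar rats, which hold neurons and glia, and the study limited the growth of glia with cytosine arabinoside. All cultures were taken on day 10 in vitro, and the 6 groups hold 3 libraries each. Control received neither glutamate nor a preparation, and Glutamate received 100 µM glutamate, with total RNA taken 4 h later. The Memantine label does not name glutamate, but the design text places 100 µM memantine, which blocks NMDA receptors, within the glutamate model as its positive control. Glutamate_vesicles, Glutamate_secret and Glutamate_BPC received glutamate and, a day earlier, material released by human glial progenitor cells derived from induced pluripotent stem cells. The first of these is the extracellular vesicle group. The labels do not settle which of the other two names stands for the protein fraction and which for the total secretome, so these names are used as given. They also do not say whether replicates were separate cultures. The paper states for all experiments at least 4 repeats on unrelated cultures, without naming the 3 libraries of a group. Its clustering of the control, glutamate, memantine and vesicle groups used batch-corrected counts, and that caption does not name the batch. The p-values therefore measure the spread between these libraries, which may be technical.

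Connexins assemble into hexamers in the cell membrane, and hexamers of neighbouring cells dock to form gap junctions, which pass ions and small molecules between the cells. Connexin 43 (Gja1), connexin 30 (Gjb6) and connexin 26 (Gjb2) are the connexins of astrocytes, connexin 36 (Gjd2) forms electrical synapses between neurons, and connexin 40 (Gja5) and connexin 37 (Gja4) are best known from arterial endothelium. Connexin 45 (Gjc1) is found in several excitable tissues, including smooth muscle and neurons. Pannexin 1 does not build classical gap junctions and forms membrane channels that can release ATP.

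Values are expected counts scaled to counts per 1000000 counts of the library size that edgeR estimated (CPM). They are not divided by transcript length, so levels are compared between libraries and not between genes. Library totals ranged from 8409574 to 17206354 counts, and 3 counts in a library corresponded to between 0.120 and 0.857 CPM. The share of ribosomal RNA ranged from 3.04% to 43.0% of counts, with the highest value in Control 1. It differed between replicate numbers, being 13.4% to 43.0% in libraries numbered 1 and 3.04% to 8.15% in those numbered 2.

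Gja5 was low in the Control, Glutamate and Memantine groups and stood highest with vesicles. In Control it measured 0.286, 0.196 and 0.700 CPM, which rest on 1, 4 and 13 counts. In Glutamate it measured 2.20, 0.381 and 1.65 CPM. In Memantine it measured 0.752, 0.389 and 0.862 CPM. These 3 groups overlapped, and none of their 9 libraries passed 2.20 CPM. In Glutamate_vesicles it measured 22.8, 14.0 and 18.7 CPM, from 229, 349 and 385 counts. The other preparations lay between these. In Glutamate_secret it measured 3.15, 4.38 and 3.26 CPM. In Glutamate_BPC it measured 8.06, 10.03 and 3.15 CPM. All 9 libraries with a preparation lay above all 9 without one, an arrangement shown by 8 of the 14398 genes (0.0556%), and the vesicle libraries lay above every other library. The rule that chose Gja5 used the vesicle libraries, so this arrangement is not read as evidence.

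By group means, the order of Gja5 was Control (0.394 ± 0.269 CPM, SD, n = 3), Memantine (0.668 ± 0.248), Glutamate (1.41 ± 0.932), Glutamate_secret (3.60 ± 0.681), Glutamate_BPC (7.08 ± 3.55) and Glutamate_vesicles (18.5 ± 4.42). Neighbouring groups in this order overlapped, except that Glutamate lay wholly below Glutamate_secret and Glutamate_BPC wholly below Glutamate_vesicles. The mean with vesicles was 13.1 times that of Glutamate and 47.0 times that of Control, which corresponds to fitted log2 fold changes of 3.74 and 5.45. Leaving out 1 library at a time gave 3.26 to 4.21 against Glutamate and 5.04 to 6.33 against Control, the highest being without Control 3.

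**Figure D1:**
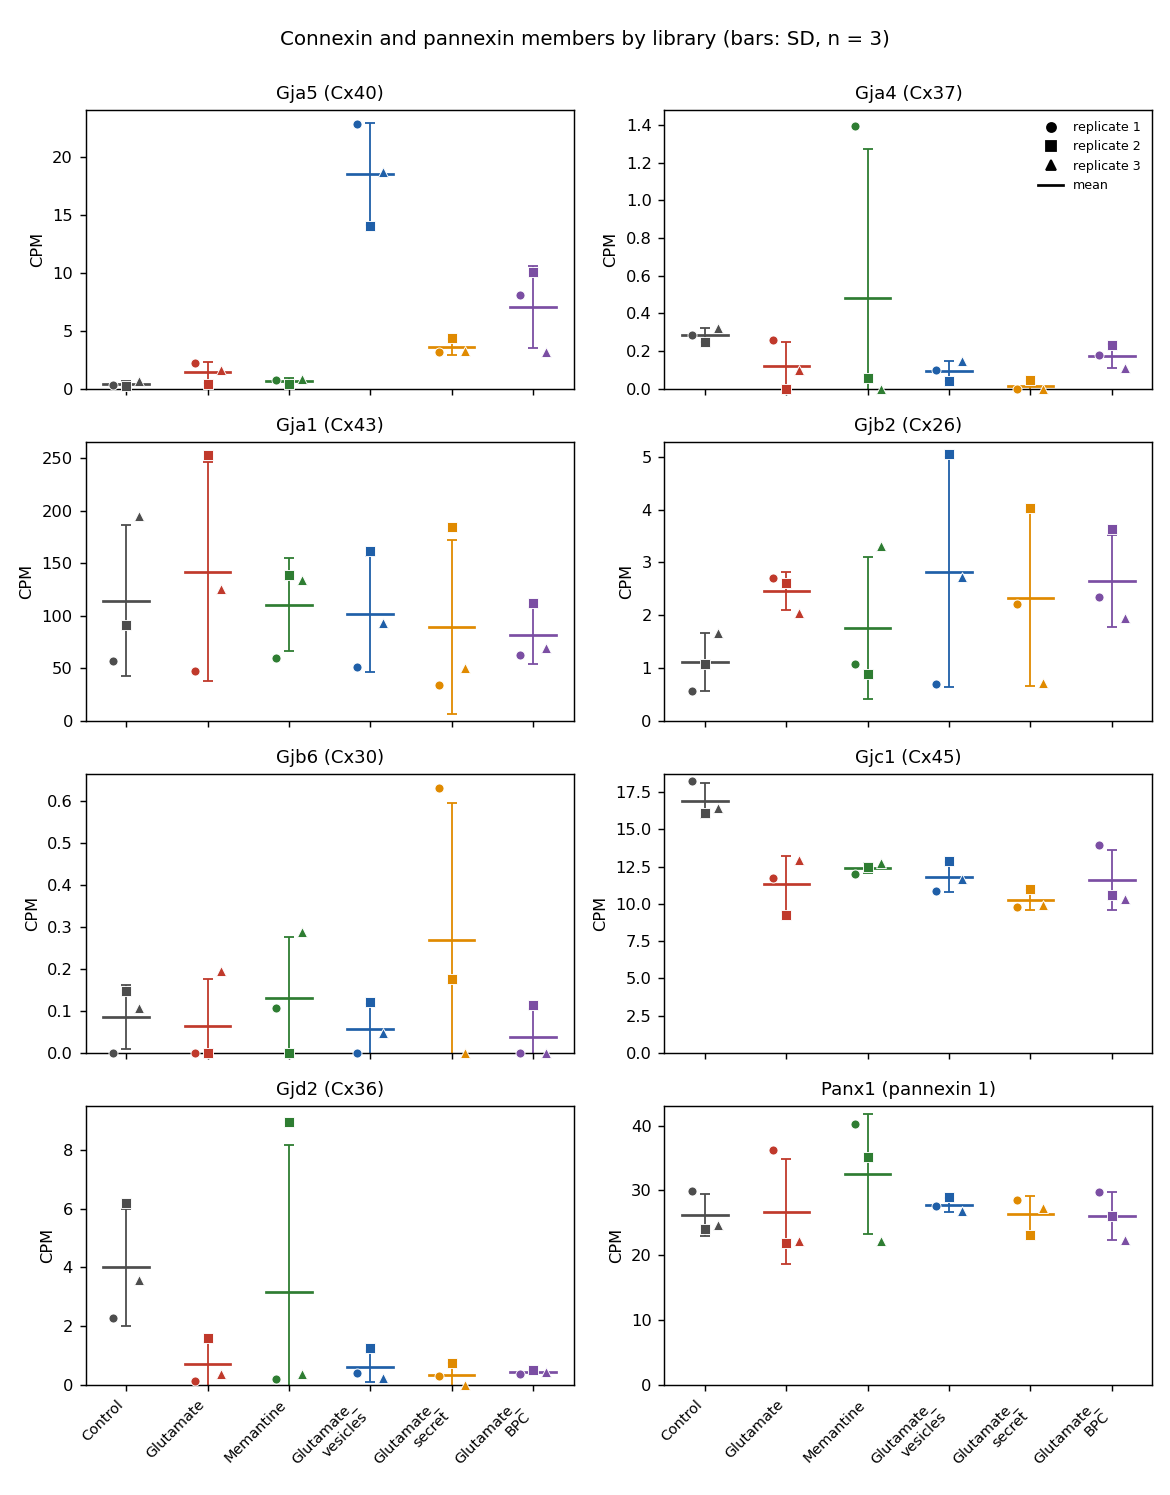
CPM (linear axis from 0) of the 8 members in each library of the 6 groups, with marker shape for the replicate number, horizontal lines for group means and bars for the SD (n = 3, cut at 0). Gja5 lies between 14.0 and 22.8 CPM in the vesicle libraries and at or below 10.03 CPM elsewhere, Gjc1 is highest in the 3 Control libraries, and Gja4 and Gjb6 stay near 0.

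The remaining contrasts of Gja5 can be tested, although they share the Glutamate or Control libraries with the contrast that chose the gene. Against Glutamate, Gja5 was 2.55 times as high in Glutamate_secret (log2 fold change 1.38, SE 0.62, 95% interval 0.06 to 2.71, adjusted p = 1, edgeR quasi-likelihood test with Benjamini-Hochberg adjustment) and 5.02 times as high in Glutamate_BPC (2.36, SE 0.63, 1.01 to 3.70, adjusted p = 1).  All 3 libraries of either preparation lay above all 3 Glutamate libraries, as did 1.4% of all tested genes for Glutamate_secret and 2.88% for Glutamate_BPC. Neither contrast passed the test over all genes.

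Against Control, Gja5 was 9.13 times as high in Glutamate_secret (log2 fold change 3.10, SE 0.69, edgeR adjusted p = 0.128) and 17.97 times as high in Glutamate_BPC (4.07, SE 0.70, edgeR adjusted p = 0.292). Without Control 3 the log2 fold changes were 3.98 and 4.95. Ranges did not overlap in either contrast, and the background of genes wholly higher was 6.88% and 12.2%. Both contrasts missed the threshold of 0.05, but they passed it with DESeq2 (adjusted p = 0.00195 and 2.43e-05) and with the likelihood-ratio test of edgeR (0.0100 and 0.000884). Over the 13 alternatives run, the adjusted p ranged from 0.00195 to 0.506 for Glutamate_secret and from 2.43e-05 to 0.637 for Glutamate_BPC.

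Glutamate alone gave a log2 fold change of Gja5 of 1.71 against Control (SE 0.68, edgeR adjusted p = 0.474), with overlapping ranges because Glutamate 2 lay below Control 3. Without Control 3 it was 2.60. On the log2 scale, Memantine differed from Glutamate by -1.05 (SE 0.65, adjusted p = 0.999 in edgeR) and from Control by 0.66 (SE 0.68, adjusted p = 1). Neither difference passed the test, and the intervals were wide, from -2.43 to 0.32 for the former and from -0.79 to 2.11 for the latter.

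Since connexin 40 is a protein of arterial endothelium, the markers of that cell type were measured in the same libraries. In bulk samples, fewer cells of a type and less RNA per cell cannot be told apart. Of 9 general endothelial markers, 8 were in the tables and 2 passed the filter. Their summed level was 0.473 to 6.34 CPM over all libraries, and it was 1.495 to 3.97 CPM with vesicles, 1.95 to 2.67 CPM in Glutamate and 3.71 to 4.17 CPM in Control. Endothelial markers were thus near 0 in every group, and their range with vesicles overlapped with that in Glutamate. The endothelial adhesion molecule Cdh5 had 70 counts over all 18 libraries, and the receptor Kdr had 48. Of the 6 arterial markers, Sox17 was at 0 in 17 libraries and the Notch ligand Dll4 had 37 counts in all. The arterial sum, carried mainly by Hey1, was 17.6 to 26.6 CPM with vesicles and 11.8 to 31.9 CPM in Glutamate.

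Some other marker lists correlated with Gja5 over the libraries, and their sums are given by group. The summed level of 9 mural and smooth muscle markers was 331 to 682 CPM with vesicles, 397 to 817 CPM in Glutamate_secret and 310 to 621 CPM in Glutamate_BPC. It was 73.9 to 185 CPM in Control, 105.7 to 413 CPM in Glutamate and 84.1 to 406 CPM in Memantine. Tagln, an actin-binding protein of smooth muscle that other cells also express, carried most of this sum. The markers Acta2, Rgs5, Kcnj8 and Des were at most 0.796, 0.111, 1.27 and 1.18 CPM. Pdgfrb, Notch3, Myh11 and Cnn1 reached 9.60, 55.9, 5.28 and 5.58 CPM. By group means, Cnn1 stood in the order of Gja5. It averaged 0.126 CPM in Control, 1.06 in Memantine, 1.69 in Glutamate, 2.41 in Glutamate_secret, 3.18 in Glutamate_BPC and 3.50 with vesicles. No other gene of this list stood in that order. The sum of 7 oligodendrocyte lineage markers was 1234 to 1443 CPM with vesicles, 1018 to 1199 CPM in Glutamate, 989 to 1215 CPM in Glutamate_secret, 939 to 1219 CPM in Glutamate_BPC, 512 to 1205 CPM in Memantine and 527 to 834 CPM in Control. Across the 18 libraries, which share their treatment within groups, Gja5 had a Pearson r on the log2 scale of 0.731 with the mural sum, 0.708 with the oligodendrocyte sum and -0.604 with the sum of neuronal markers. After centring within replicate numbers, these values were 0.795, 0.783 and -0.693. The mean mural sum was 666 ± 234 CPM in Glutamate_secret and 476 ± 183 CPM with vesicles, with overlapping ranges. The mean oligodendrocyte sum was 1339 ± 104 CPM with vesicles, whose libraries lay above every other library. It was 1134 ± 100 in Glutamate, 1112 ± 151 in Glutamate_BPC and 1076 ± 121 in Glutamate_secret. In Memantine it was 780 ± 373 and in Control 713 ± 163. The sum of fibroblast and leptomeningeal markers was 53.3 to 320 CPM with vesicles, against 31.3 to 261 CPM in Glutamate, and its r with Gja5 was 0.248 (0.619 after centring). Pdgfra carried most of this sum, with means of 184 CPM with vesicles and 111 in Glutamate. The highest values of Col1a1, Col1a2, Dcn and Lum were 7.42, 5.44, 1.09 and 0.724 CPM. The sum therefore describes mainly Pdgfra. The sum of microglial markers was 51.3 to 137 CPM with vesicles, against 87.3 to 300 CPM in Glutamate. The part of any of these cells in the level of Gja5 was not tested.

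**Figure D2:**
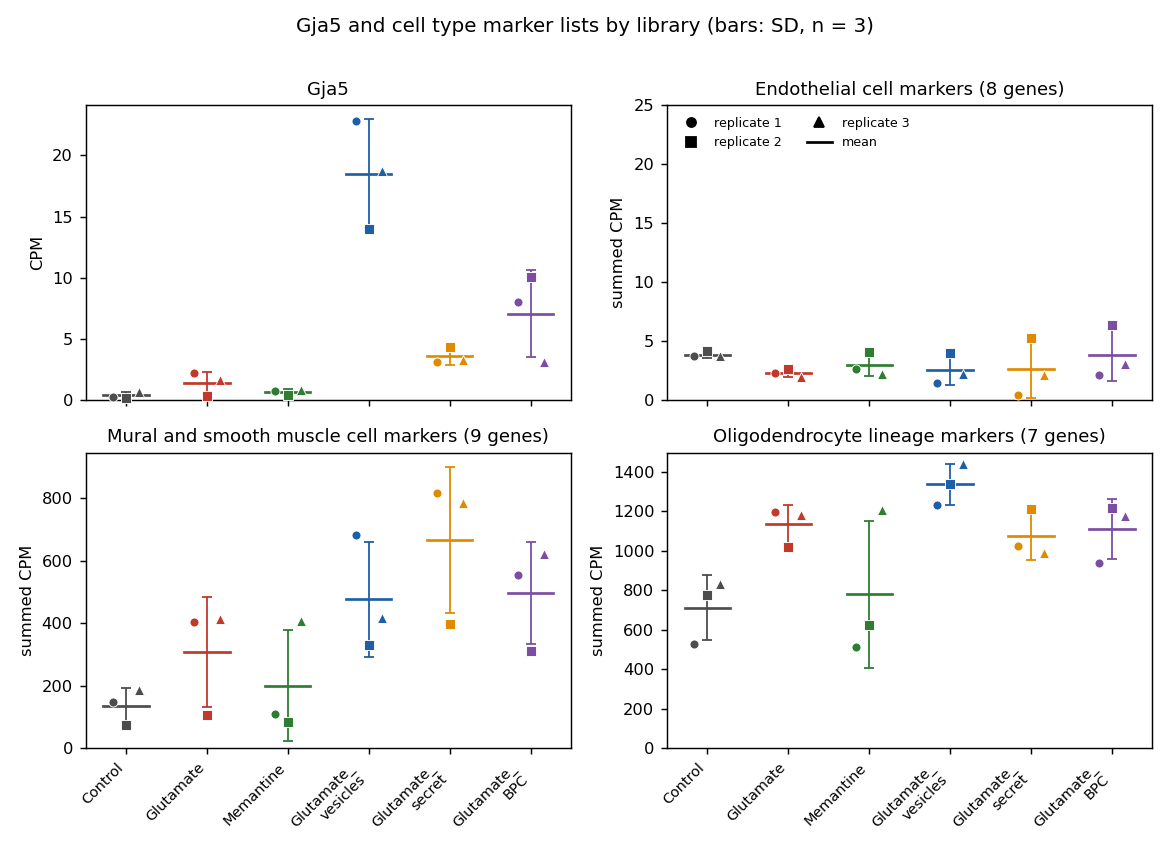
CPM of Gja5 and summed CPM of 3 marker lists in each library (linear axes from 0, points for libraries, horizontal lines for means, bars for the SD, n = 3). The endothelial panel, drawn to 25 CPM, holds no library above 6.34 CPM, and its vesicle and Glutamate libraries overlap.

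The genes whose log2 CPM followed Gja5 most closely over the 18 libraries, among 11879 genes whose mean log2 CPM reached 1, were Ccl2 (r = 0.916), Ccl7 (0.903), Gldn (0.898), S100a11 (0.897) and Dysf (0.893). Ccl2 and Ccl7 encode chemokines that attract monocytes, and dysferlin, the product of Dysf, takes part in membrane repair. Ccl2 averaged 188 ± 172 CPM with vesicles, 33.8 ± 44.1 in Glutamate, 40.0 ± 24.6 in Glutamate_BPC, 29.6 ± 9.32 in Glutamate_secret, 4.65 ± 4.06 in Memantine and 2.41 ± 2.59 in Control. Dysf averaged 57.8 ± 21.7 CPM with vesicles and 10.5 ± 2.65 in Glutamate. These genes were found by their likeness to a gene that was itself chosen for its level with vesicles.

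The promoter of Gja5 is shown beside that of Gja4, the other arterial connexin, which stayed near 0 in these libraries, and that of Gja1, the astrocyte connexin, which differed between replicate numbers. Each window runs from 250 bases before to 50 bases after the RefSeq start in GRCr8, and 7 of the 8 members had an entry, Gjc1 being the one without. The positions are chr2:187290977-187291276 (plus strand) for Gja5, chr5:144920275-144920574 (minus strand) for Gja4 and chr20:36302314-36302613 (plus strand) for Gja1. Sequences are written 5′ to 3′ on the strand of the gene, and capitals mark matches on either strand to 4 common promoter motifs, namely AP-1, the GC box, the TATA box and the E-box.
Gja5: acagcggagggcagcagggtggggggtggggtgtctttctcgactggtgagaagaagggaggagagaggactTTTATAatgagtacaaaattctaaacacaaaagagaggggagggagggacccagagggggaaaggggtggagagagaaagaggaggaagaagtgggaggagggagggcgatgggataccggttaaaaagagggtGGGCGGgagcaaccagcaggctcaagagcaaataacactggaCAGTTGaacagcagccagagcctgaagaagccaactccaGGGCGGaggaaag
Gja4: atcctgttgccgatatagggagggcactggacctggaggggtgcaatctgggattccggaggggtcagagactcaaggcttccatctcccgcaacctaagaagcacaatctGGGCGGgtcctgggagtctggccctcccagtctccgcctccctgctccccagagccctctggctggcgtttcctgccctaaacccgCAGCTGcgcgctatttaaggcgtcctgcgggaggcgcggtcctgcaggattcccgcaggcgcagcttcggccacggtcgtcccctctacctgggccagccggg
Gja1: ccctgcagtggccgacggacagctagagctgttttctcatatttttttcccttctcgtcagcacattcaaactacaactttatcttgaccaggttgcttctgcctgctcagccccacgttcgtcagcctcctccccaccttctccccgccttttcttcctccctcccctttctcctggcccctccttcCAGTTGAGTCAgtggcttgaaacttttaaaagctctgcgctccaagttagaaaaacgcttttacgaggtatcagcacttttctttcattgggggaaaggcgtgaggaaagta

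The Gja5 window held GC boxes at -44 to -39 and at 38 to 43 from the start, an E-box at -2 to 4 and a TATA box on the opposite strand at -178 to -173. The Gja4 window held 1 GC box at -139 to -134 and 1 E-box at -53 to -48. The Gja1 window held an E-box at -62 to -57 that overlaps an AP-1 match at -58 to -52, and of the 7 members it was the one with AP-1 letters. Among 33469 RefSeq promoters of this length, AP-1, searched as the letters TGANTCA, was in 7.33%. The GC box, searched as the letters GGGCGG, was in 33.1%. The TATA box, searched as the letters TATAAA, was in 14.2%. The E-box, searched as the letters CANNTG, was in 72.1%. These matches are descriptions of the windows.

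Gja4 stayed at the limit of detection. It had 42 counts in all 18 libraries, 13 of which were in Memantine 1 at 1.396 CPM, and 4 libraries held none. In the vesicle libraries it had 1, 1 and 3 counts, or 0.0997, 0.0401 and 0.146 CPM. In Control it had 1, 5 and 6 counts. The level of Gja4 with vesicles was thus at or under the 3 counts that a library can resolve, in the libraries in which Gja5 had between 229 and 385. No difference between groups was detectable for Gja4 at this depth.

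Gjc1 was highest in the untreated cultures. It measured 18.3, 16.1 and 16.4 CPM in Control and 11.8, 9.27 and 12.9 CPM in Glutamate. It measured 12.03, 12.4 and 12.7 CPM in Memantine, and 10.9, 12.9 and 11.7 CPM with vesicles. It measured 9.77, 11.02 and 9.96 CPM in Glutamate_secret, and 13.9, 10.6 and 10.3 CPM in Glutamate_BPC. All 3 Control libraries lay above all 15 others, as they did for 0.431% of tested genes, and the 5 groups with treatment overlapped with their neighbours in the order of means.

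Against Control, the log2 fold change of Gjc1 was -0.58 in Glutamate (SE 0.27, edgeR adjusted p = 0.615), -0.45 in Memantine, -0.52 with vesicles, -0.72 in Glutamate_secret (SE 0.27, edgeR adjusted p = 0.313) and -0.54 in Glutamate_BPC. None was called by edgeR, although Glutamate_secret was called by DESeq2 (adjusted p = 0.0427). These comparisons share the Control libraries, and the share of all genes whose range was wholly lower than in Control was 7.76% for Glutamate, 1.19% for Memantine, 9.83% for vesicles, 9.07% for Glutamate_secret and 12.7% for Glutamate_BPC. Against Glutamate, the log2 fold changes lay between -0.14 and 0.13, and for vesicles the 95% interval ran from -0.51 to 0.64.

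Gjd2, the connexin of electrical synapses, was present in Control at 2.28, 6.18 and 3.55 CPM. In Glutamate it measured 0.129, 1.59 and 0.389 CPM. With vesicles it measured 0.399, 1.24 and 0.243 CPM, in Glutamate_secret 0.315, 0.752 and 0 CPM, and in Glutamate_BPC 0.362, 0.519 and 0.434 CPM. All of these libraries lay below the lowest Control library, with the background shares of wholly lower genes given above. Memantine was divided, with 8.95 CPM in Memantine 2, the highest value of all libraries, and 0.215 and 0.359 CPM in the others.

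Against Control, the log2 fold change of Gjd2 was -2.46 in Glutamate (SE 1.24, edgeR adjusted p = 0.670), -2.65 with vesicles (SE 1.23, adjusted p = 0.425), -3.29 in Glutamate_secret (SE 1.30, adjusted p = 0.333) and -3.18 in Glutamate_BPC (SE 1.29, adjusted p = 0.367). Means were 4.01 ± 1.99 CPM in Control and 0.356 to 0.702 CPM in these 4 groups, yet none of the contrasts passed the test over all genes. In 3 of them, leaving out the library numbered 2 of the treated group moved the value most, to -3.88 without Glutamate 2, -3.65 without Glutamate_vesicles 2 and -4.55 without Glutamate_secret 2. The F test of edgeR among the 6 groups gave an adjusted p = 0.574. Memantine differed from Glutamate by 2.12 on the log2 scale (SE 1.22, adjusted p = 0.999 in edgeR), and without Memantine 2 it was -1.31, so the sign rests on this library. Against Control, Memantine gave -0.34, with -3.76 without Memantine 2.

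The markers of neurons followed Gjd2 and Gjc1 only in part. The summed level of 9 neuronal markers was 2100 to 2800 CPM in Control, 600 to 1132 CPM in Glutamate, 654 to 3329 CPM in Memantine, 587 to 901 CPM with vesicles, 499 to 1055 CPM in Glutamate_secret and 676 to 1086 CPM in Glutamate_BPC. The Control libraries lay above those of every other group except Memantine, which overlapped with Control. Memantine 1 had the highest neuronal sum of all libraries. Its Gjd2 and Gjc1, at 0.215 and 12.03 CPM, lay below every Control library. Memantine 2, with a neuronal sum of 2314 CPM, had the highest Gjd2 but Gjc1 of 12.4 CPM. Between Glutamate and Control, 6 of the 9 had an unadjusted p below 0.05, all lower, against 8.11% of all genes, and 0 were called by edgeR. Over the 18 libraries, r with the neuronal sum was 0.516 for Gjd2 and 0.634 for Gjc1, or 0.748 and 0.668 after centring within replicate numbers. The part of the neuronal share in either gene was not tested.

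Gja1, the main astrocyte connexin, varied more between replicates than between groups. It measured 56.5, 91.3 and 195 CPM in Control, 47.5, 253 and 125 CPM in Glutamate, and 59.7, 139 and 134 CPM in Memantine. With vesicles it measured 51.4, 161 and 92.9 CPM, in Glutamate_secret 34.0, 185 and 49.96 CPM, and in Glutamate_BPC 62.4, 112 and 69.7 CPM. Libraries numbered 1 lay between 34.0 and 62.4 CPM and those numbered 2 between 91.3 and 253 CPM, so these sets did not overlap. The library numbered 1 was the lowest in 6 of 6 groups, which held for 4.79% of tested genes, and the library numbered 2 was the highest in 5 of 6, where 28.7% of genes were highest in at least 5. Gjd2 was likewise highest in the library numbered 2 in 6 of 6 groups, against 9.05% of genes. The share of ribosomal RNA differed between these numbers as given above, and its part in these levels was not tested.

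**Figure D3:**
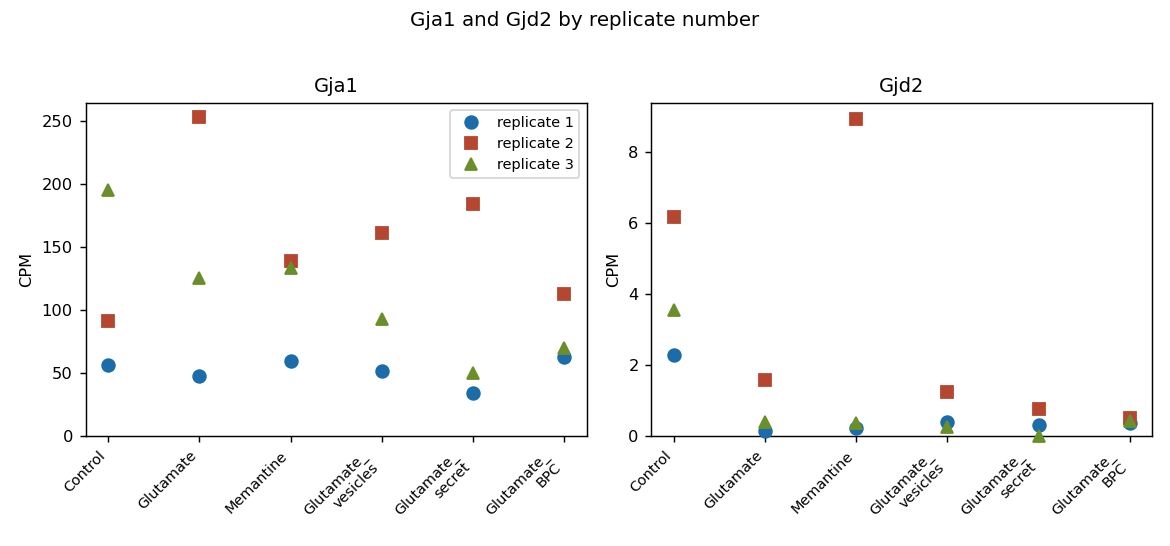
CPM (linear axis from 0) of Gja1 and Gjd2 in the 18 libraries, arranged by group and coloured by replicate number. For Gja1 the libraries numbered 1 (34.0 to 62.4 CPM) all lie below those numbered 2 (91.3 to 253 CPM), and for Gjd2 number 2 is the highest point in each group.

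Group means of Gja1 ranged from 81.5 ± 27.0 CPM in Glutamate_BPC to 142 ± 104 CPM in Glutamate, and all ranges overlapped. The F test of edgeR gave an adjusted p = 1.00, and log2 fold changes over the 9 comparisons ran from -0.80 to 0.31. The difference between Glutamate and Control was 0.31 with a 95% interval of -1.17 to 1.80, so changes of more than 2-fold in either direction remain within the interval. Its sign turned without Glutamate 2 (-0.40). The sum of 8 astrocyte markers was 3453 to 13531 CPM over all libraries, and its r with Gja1 was -0.04. Gfap was the largest part of this sum, with group means from 2156 CPM in Control to 6701 CPM in Glutamate_BPC. For the astrocyte marker Aqp4 alone, singled out after its value was seen, r was 0.936. The r of Gja1 was 0.75 with the fibroblast sum and 0.704 with the arterial sum, or 0.394 and 0.168 after centring within replicate numbers. Pdgfra carried most of the former sum and Hey1 most of the latter. The genes most like Gja1 over the 18 libraries were Nid2 (r = 0.959), Igdcc4 (0.947), Celsr1 (0.946), Add3 (0.945) and ENSRNOT00000118194 (0.940). Nid2 encodes a basement membrane protein and Celsr1 a cadherin of planar cell polarity.

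The other astrocyte connexins rested on few counts, 615 for Gjb2 and 26 for Gjb6 over all libraries. Gjb2 measured 0.571, 1.08 and 1.67 CPM in Control and 2.71, 2.60 and 2.04 CPM in Glutamate. With vesicles it measured 0.698, 5.06 and 2.72 CPM, and in Memantine 1.07, 0.889 and 3.31 CPM. In Glutamate_secret it measured 2.21, 4.03 and 0.724 CPM, and in Glutamate_BPC 2.35, 3.63 and 1.95 CPM. The Glutamate and Glutamate_BPC libraries lay above all Control libraries, while the other groups overlapped with Control. The log2 fold change between Glutamate and Control was 1.08 (SE 0.75, edgeR adjusted p = 0.907), against a background of 4.48% of genes with higher ranges that do not overlap. Among the 6 groups the F test of edgeR gave an adjusted p = 1.00. With vesicles against Glutamate the value was 0.22, and it was -0.50 without Glutamate_vesicles 2. Gjb6 had at most 4 counts in a library, and 8 libraries held none. Connexin 30 was therefore at the limit of detection in cultures in which the astrocyte markers above were abundant.

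Panx1, the channel protein, had similar means in all groups. It measured 30.0, 24.0 and 24.7 CPM in Control, 36.2, 21.9 and 22.2 CPM in Glutamate and 40.3, 35.2 and 22.3 CPM in Memantine. It measured 27.6, 28.9 and 26.8 CPM with vesicles, 28.5, 23.2 and 27.3 CPM in Glutamate_secret and 29.7, 26.1 and 22.3 CPM in Glutamate_BPC. All groups overlapped, and group means lay between 26.1 and 32.6 CPM. The F test of edgeR over the groups gave an adjusted p = 1.00. The log2 fold change between Glutamate and Control was 0.03 with a 95% interval of -0.60 to 0.65, and with vesicles against Glutamate it was 0.06 (-0.57 to 0.68).

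**Figure D4:**
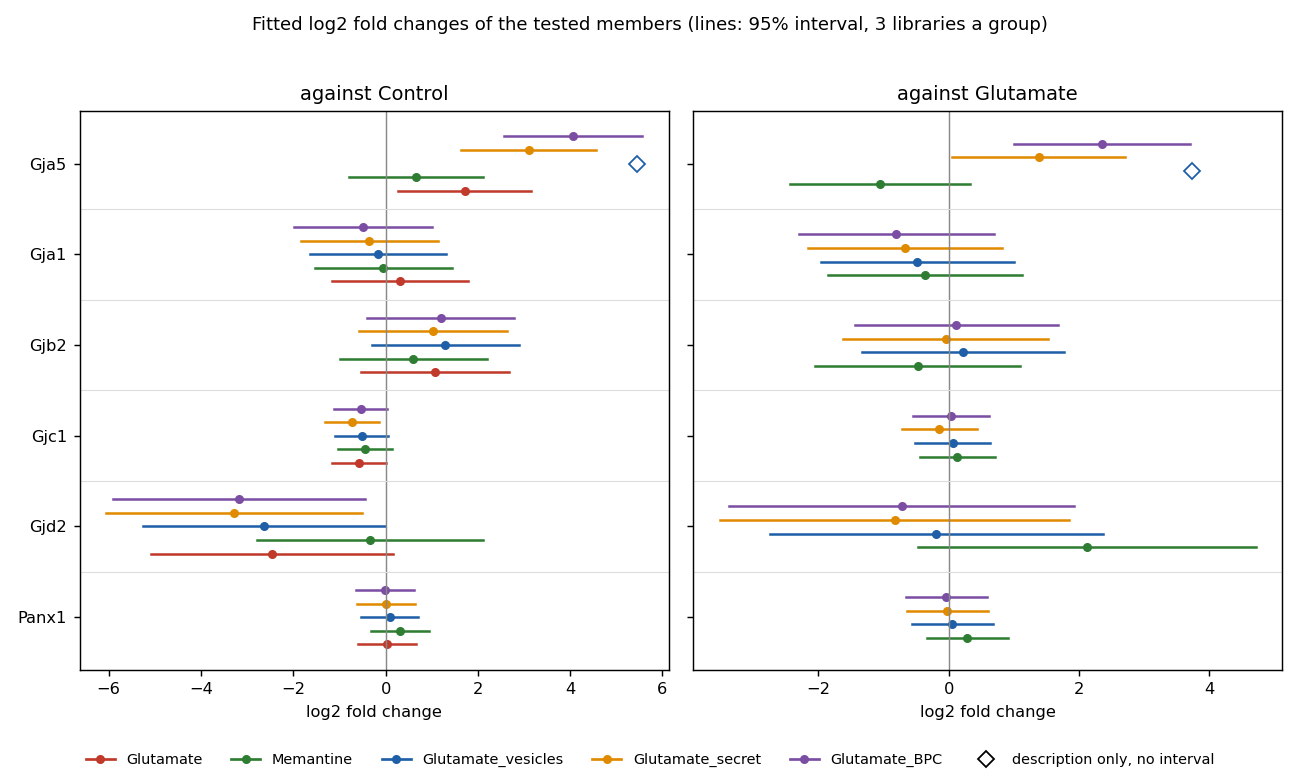
Fitted log2 fold changes of the 6 tested members against Control (left) and against Glutamate (right), with points for the estimates of edgeR and lines for 95% intervals (3 libraries a group). Open diamonds give Gja5 with vesicles (5.45 and 3.74) as a description with no interval, and the intervals of Gjd2 are the widest while those of Gjc1 and Panx1 are the narrowest.

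Counted over the members, 0 of the 6 tested were called between Glutamate and Control by edgeR, where the background over all genes was 0%. At an unadjusted p below 0.05 there were 2, Gja5 higher and Gjc1 lower, with a background of 8.11%. In the comparisons of a treated group with Glutamate, 0 members were called by edgeR, with 0% of all genes called in each. The unadjusted count was 0 for Memantine (background 5.08%), 0 of the 5 other members for vesicles (1.08%), 1 for Glutamate_secret (0.681%) and 1 for Glutamate_BPC (1.07%), both of them Gja5. Gja5 was picked by its rise with vesicles, and its contrasts here share their Glutamate libraries with that choice. Its entries are therefore not read against the background shares.

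In the comparisons with Control, 0 members were called for Memantine and 0 at an unadjusted p below 0.05 (background 1.12%). For vesicles, 0 of the 5 members other than Gja5 were called where edgeR called 0.0139% of genes, and Gjd2 was below 0.05 unadjusted (background 11.6%). For Glutamate_secret, 0 were called and 3 were below 0.05 unadjusted, Gja5 higher and Gjc1 and Gjd2 lower (11.8%). For Glutamate_BPC, 0 were called and 2 were below it, Gja5 higher and Gjd2 lower (11.3%). Gja5 shares these Control libraries with the vesicle contrast, and its entries are not read against these shares either. In the F test among the 6 groups, 0 of the 5 members other than Gja5 were called by edgeR (background 0.00695%), and Gjd2 was below 0.05 unadjusted (7.75%). DESeq2 called 2 members for Glutamate_secret against Control (Gja5 and Gjc1, where it called 3.08% of all genes), 1 for Glutamate_BPC against Control (Gja5, 1.74%) and 0 in the other comparisons, Gja5 with vesicles not being counted. The median log2 fold change of the tested members, Gja5 included, was 0.17 between Glutamate and Control, against 0.08 over all tested genes. Against Control it was 0.13 in Memantine, -0.17 in Glutamate_secret and -0.25 in Glutamate_BPC, where all genes gave 0.10, 0.06 and -0.06. With vesicles it was -0.17 without Gja5, against 0.03. In the comparisons with Glutamate, the medians lay between -0.11 and 0.06.

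The other 15 connexins and pannexins were mostly at or near 0. All were in the tables, 3 passed the filter, and Gjd4 and Gje1 were at 0 in all 18 libraries, where 3 counts would allow up to 0.857 CPM. The 3 tested genes were not called in any comparison by edgeR, and 1, Panx2, was below 0.05 unadjusted, lower in Glutamate_secret than in Control, a comparison in which 11.8% of all genes were below 0.05 in either direction. Panx2, a pannexin of neurons, averaged 22.6 ± 5.48 CPM in Control, 13.3 ± 3.22 in Glutamate, 22.3 ± 9.61 in Memantine and 15.1 ± 3.42 with vesicles (F test of edgeR, adjusted p = 0.871). Gjb1, connexin 32 of oligodendrocytes and Schwann cells, averaged 0.807 to 2.86 CPM over the groups, and Gjc3, a connexin of myelinating glia, 0.756 to 2.11 CPM.

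Of 14 connexin partners, trafficking genes and kinases, all were tested and 0 were called in any comparison by edgeR. In the F test, 2 of the 14 were below 0.05 unadjusted, against 7.75% of all genes. Dbn1, which encodes the actin-binding protein drebrin that binds connexin 43, averaged 225.1 ± 51.9 CPM in Control, 103 ± 29.8 in Glutamate, 200 ± 92.8 in Memantine and 133 ± 11.9 with vesicles (edgeR adjusted p = 0.437). Prkce, a protein kinase C, averaged 17.3 ± 8.80 CPM in Control and 5.93 ± 4.41 in Glutamate (edgeR adjusted p = 0.489). The kinase Prkca came next (F test of edgeR, adjusted p = 1.00). Both Dbn1 and Prkce had lower means in Glutamate and in the 3 preparation groups than in Control.

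Of 14 genes of ATP release and purinergic signalling, 13 were in the tables and tested, and 0 were called in any comparison by edgeR. Adora2a, an adenosine receptor, averaged 3.90 ± 0.802 CPM in Control, 0.644 ± 0.449 in Glutamate, 2.10 ± 1.92 in Memantine, 0.405 ± 0.180 with vesicles, 0.841 ± 0.487 in Glutamate_secret and 0.846 ± 0.211 in Glutamate_BPC (F test of edgeR, adjusted p = 0.177). P2ry6 averaged 1.15 ± 0.881 CPM in Control and 5.34 ± 3.00 in Glutamate_BPC, and P2ry2 averaged 1.78 ± 0.966 in Control and 4.90 ± 2.14 in Glutamate. Both encode receptors for extracellular nucleotides, and neither passed the F test of edgeR (adjusted p = 1.00 for each).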

How the data were processed

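Messenger RNA libraries, 18 in all and 3 in each of 6 groups taken from the titles, were analysed. The deposited values are expected counts per gene, unscaled, and were rounded to whole numbers here. As the paper's methods state, the authors used Trimmomatic and Cutadapt for trimming, mapped with Salmon to Ensembl rat transcripts plus a genome decoy, and obtained gene values with tximport. The submitters' processing notes name rn6, STAR and Salmon, and versions are not stated there. No source states the strand used in counting, so reads of overlapping antisense genes may be shared. The sources name different library kits and sequencers.

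Tests used edgeR 4.0.16 under R 4.3.3 (filterByExpr with minimum count 10 and minimum total 15, TMM scaling, 1 mean per group over 18 libraries, two-sided quasi-likelihood test, Benjamini-Hochberg adjustment over 14398 genes, threshold 0.05). The study used the likelihood-ratio test of edgeR, an alternative here, as was DESeq2 1.42.0. The tests had been planned for counts and were applied to the rounded values. Log2 CPM used a prior count of 2, and SEs come from the F statistic. Scripts were tested on simulated data. No 2 libraries held identical values. Replicate numbers paired the libraries in 4 comparisons (Memantine, Glutamate_secret and Glutamate_BPC against Glutamate, and vesicles against Control), where deviations from the group means correlated at 0.208 to 0.892 within every number.

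The members, gene lists and markers were chosen with earlier results of these data known. All 8 members were named, with up to 3 genes of each list by smallest p in the F test and the 5 genes most like Gja5 and Gja1. No comparison columns of the authors were used.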

Additional observations from a re-analysis of the deposited data

How the results depend on the processing

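Log2 fold changes of members were recomputed with another scaling, filter or test, a block for the replicate number, or only the compared groups. Over these settings 8 newly passed the threshold and 0 turned sign, and sign turns on leaving out single libraries are given below. With edgeR, 0 members were called in Glutamate_secret against Control and 0 in Glutamate_BPC against Control. DESeq2 called 2 (Gja5 and Gjc1) and 1 (Gja5), where it called 3.08% and 1.74% of all genes, and the likelihood-ratio test called 1 and 1 (Gja5), with 1.55% and 0.424% of all genes. With the replicate number as a block, edgeR called 2 (Gja5, log2 fold change 3.12, adjusted p = 0.0208, and Gjd2, -3.83, adjusted p = 0.0367) and 1 (Gja5, 4.09, adjusted p = 0.0329), with 4.86% and 1.74% of all genes. In these comparisons the numbers did not pair the libraries, since number 3 correlated at -0.454 and -0.259, and the block changed no other count of called members. DESeq2 called 235 genes between Glutamate and Control and 488 between vesicles and Control, where edgeR called 0 and 2. The cause of these differences was not tested.

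Leaving out each library in turn left the count of called members at 0 in every comparison. Signs turned for Gja1 between Glutamate and Control (-0.40 to 0.94, turning without Control 1 at -0.0093 and without Glutamate 2) and between vesicles and Glutamate (-0.98 to 0.24, turning without Glutamate 2). They turned for Gjd2 between Memantine and Control (-3.76 to 0.20, turning without Control 2, Memantine 1 or Memantine 3) and between Memantine and Glutamate (-1.31 to 3.54, turning without Memantine 2), and for Gjb2 between vesicles and Glutamate (-0.50 to 0.67, turning without Glutamate_vesicles 2). Gja4 and Gjb6 had too few counts to compare, and with 3 libraries a group the intervals of Gja1, Gjb2 and Gjd2 include changes of more than 2-fold.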
